A study of Homo sapiens with 12 samples.

Results

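The genes described here are 35 transcripts of the hypoxia-inducible factor (HIF) pathway in T84 cells: the HIF subunits, the enzymes that sense oxygen for them, and HIF target genes that lie outside glycolysis. They were set as a list of gene names with earlier results of these data known, so no pattern here is independent evidence. The rule itself uses no measured value. All 35 were found among the 48162 gene identifiers of the count tables. Of these, 33 passed the expression filter and were tested, among 15630 tested genes in all. T84 is an established human colon carcinoma line that forms a polarised epithelial layer in culture. Confluent T84 cells were moved out of growth medium into Hanks buffered saline and kept there in 4 groups of 3 libraries each: pH 6.0 for 3 h, pH 7.4 for 3 h, pH 6.0 for 6 h and pH 7.4 for 6 h. The submitters named the pH 7.4 groups as controls. Every library therefore came from cells in saline, and cells kept in growth medium were not analysed here. The labels give no oxygen tension, and HIF protein was not measured.

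HIF is a transcription factor made of an oxygen-labile alpha subunit (HIF1A or EPAS1) and a stable partner (ARNT). When oxygen is plentiful, the prolyl hydroxylases EGLN1, EGLN2 and EGLN3 mark the alpha subunit, VHL carries it to ubiquitin-dependent destruction, and the asparaginyl hydroxylase HIF1AN blocks the binding of coactivators to what is left. When hydroxylation fails, HIF binds a short DNA core of A or G followed by CGTG near its targets and raises their transcription, and in the gut lining, which lives at low oxygen, this is known to serve barrier upkeep and energy supply. Control of the alpha subunit acts mainly on the protein, so mRNA levels of HIF1A and EPAS1 do not measure HIF activity.

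Promoter windows of members were searched for the letters of the HIF core. RefSeq promoter windows on GRCh38.p14, from 250 bases before to 50 bases after a gene's start, were available for 27 of the 35 members in 35 windows. ACGTG occurred on either strand in 18 of the 35 windows (51.4%), against 21.4% of all 35116 windows. GCGTG occurred on either strand in 19 of them (54.3%), against 36.5% of all windows. At least 1 of the motifs was present in 28 member windows (80.0%), against 48.4% of all windows. CACGTG, which reads as ACGTG on both strands, occurred in 10 (28.6%), against 7.26%. Counted by gene, 22 of the 27 members (81.5%) had at least 1 of the motifs, against 52.4% of all genes. The members were listed as genes of the HIF pathway, and the windows were not matched for base composition. These letters are a description of the windows and do not show binding. The windows of 4 members that were higher at pH 6.0 at 6 h are printed beside that of EGLN3, which passed at 3 h and not at 6 h and holds neither motif. They are PPFIA4 (chr1:203026241-203026540, plus strand), PLOD2 (chr3:146161135-146161434, minus strand), MIR210HG (chr11:568408-568707, minus strand), BNIP3 (chr10:131981874-131982173, minus strand) and EGLN3 (chr14:33951025-33951324, minus strand). Capitals mark every ACGTG or GCGTG on the printed strand and every CACGT or CACGC, their form on the other strand.
PPFIA4: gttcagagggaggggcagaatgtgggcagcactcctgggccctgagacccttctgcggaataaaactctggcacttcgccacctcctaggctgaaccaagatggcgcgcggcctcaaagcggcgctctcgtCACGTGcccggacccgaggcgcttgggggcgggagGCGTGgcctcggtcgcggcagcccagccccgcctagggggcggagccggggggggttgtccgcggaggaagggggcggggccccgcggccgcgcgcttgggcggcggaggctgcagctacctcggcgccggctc
PLOD2: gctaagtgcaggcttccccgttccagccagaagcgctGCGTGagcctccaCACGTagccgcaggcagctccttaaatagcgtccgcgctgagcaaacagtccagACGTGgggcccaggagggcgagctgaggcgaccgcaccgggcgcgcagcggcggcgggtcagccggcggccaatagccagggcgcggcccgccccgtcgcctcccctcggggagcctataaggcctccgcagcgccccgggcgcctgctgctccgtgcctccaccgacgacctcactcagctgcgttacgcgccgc
MIR210HG: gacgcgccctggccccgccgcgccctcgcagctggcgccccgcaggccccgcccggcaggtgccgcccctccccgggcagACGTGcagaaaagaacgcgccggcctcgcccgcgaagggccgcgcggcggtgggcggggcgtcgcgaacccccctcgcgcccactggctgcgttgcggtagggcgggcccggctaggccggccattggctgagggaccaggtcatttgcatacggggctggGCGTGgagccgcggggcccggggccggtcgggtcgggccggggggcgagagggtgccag
BNIP3: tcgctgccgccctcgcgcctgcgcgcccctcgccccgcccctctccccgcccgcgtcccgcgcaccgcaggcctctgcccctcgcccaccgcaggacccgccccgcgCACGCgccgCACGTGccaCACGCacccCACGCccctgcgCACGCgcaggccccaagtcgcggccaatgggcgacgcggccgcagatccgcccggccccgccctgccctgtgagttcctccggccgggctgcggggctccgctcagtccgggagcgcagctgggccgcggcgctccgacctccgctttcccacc
EGLN3: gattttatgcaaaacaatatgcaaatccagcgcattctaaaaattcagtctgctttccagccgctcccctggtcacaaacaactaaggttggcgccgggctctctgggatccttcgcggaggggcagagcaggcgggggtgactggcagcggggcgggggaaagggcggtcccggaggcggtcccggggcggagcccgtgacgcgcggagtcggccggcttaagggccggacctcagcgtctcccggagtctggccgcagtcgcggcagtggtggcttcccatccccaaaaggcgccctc
PPFIA4 held CACGTG, which begins 119 bases before the start, and GCGTG 84 bases before it. PLOD2 held ACGTG on both strands, 146 bases before the start on the printed strand and 200 bases before it on the other strand. BNIP3 held CACGTG among 4 copies of CACGC. The window of EGLN3 held none of them, which says only that these letters are not in this window. The printed windows are examples, and other members did not all follow this split. P4HA2 was also higher at 6 h and held neither motif, while CITED2 was lower with a motif in all 3 of its windows. ANKRD37, WSB1, EGLN2 and ANGPTL4 held ACGTG and did not pass at 6 h. Whether the motifs go with the pH difference was not tested. The windows of FUT11, VHL, HILPDA, NDRG1, RAB20, STC1, BNIP3L and VEGFA were not used here.

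Libraries held 13912532 to 18205946 counts at pH 6.0 and 3 h, 16865263 to 24331032 at pH 7.4 and 3 h, 15383041 to 20525403 at pH 6.0 and 6 h, and 16574741 to 18921141 at pH 7.4 and 6 h. All 10 colon epithelial markers were detected in every library. Their summed level was 9305.6 to 9607.8 CPM at pH 6.0 and 8473.5 to 9191.7 CPM at pH 7.4 at 3 h, and 10065.3 to 10935.0 CPM at pH 6.0 and 7986.6 to 8272.5 CPM at pH 7.4 at 6 h. Singly, 2 of the 10 were higher at pH 6.0 and 0 lower at 3 h, and 5 were higher and 2 lower at 6 h. KRT8 gave the largest share of the sum, with a mean of 4520.5 CPM at pH 6.0 and 2919.1 CPM at pH 7.4 at 6 h, while CDH1 (737.8 and 865.4 CPM) and KRT20 (385.4 and 453.1 CPM) were lower at pH 6.0. The part of these markers in the results below was not tested. CPM values here use library totals scaled by TMM factors. Markers of fibroblasts, leukocytes and endothelium each summed to at most 13.7 CPM in 11 libraries, with the B cell marker MS4A1 at 0 in all 12, and the remaining library, replicate 2 of pH 7.4 at 6 h, had 33.6 CPM of fibroblast markers. Without that library the count of members that differed with pH at 6 h was still 20 higher and 4 lower. In bulk RNA, fewer cells with a transcript and less of it per cell cannot be told apart. Whether the libraries of a group were grown as separate cultures is not stated in the labels, so a p-value speaks only of the spread from library to library, and that spread may be technical. Mitochondrially encoded genes took 7.14% to 7.40% of the counts at pH 6.0 and 6 h and 7.97% to 8.97% at pH 7.4 and 6 h, and 7.46% to 9.24% at pH 6.0 and 3 h and 7.81% to 10.6% at pH 7.4 and 3 h. The part of this in the results was not tested.

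Members spanned a wide range of levels. On the RPKM scale, which allows for gene length, NDRG1 was the most abundant member in acid saline, at 377.4 ± 33.8 RPKM at 3 h and 384.6 ± 50.9 at 6 h (SD, n = 3). BNIP3 followed, at 171.5 ± 8.23 and 200.4 ± 31.3 RPKM. At pH 7.4 and 6 h the order of these 2 was turned, with BNIP3 at 113.3 ± 5.07 and NDRG1 at 103.0 ± 4.33 RPKM, and their libraries overlapped (BNIP3 107.8 to 117.8 and NDRG1 100.5 to 108.0 RPKM). Among the subunits EPAS1 was above HIF1A and HIF1A above ARNT in every group, for example 45.8 ± 0.832, 28.3 ± 2.07 and 5.91 ± 0.0998 RPKM at pH 6.0 and 6 h. BHLHE40, a transcriptional repressor, and TMEM45A, a membrane protein, were close to absent. BHLHE40 reached at most 0.176 CPM and TMEM45A at most 0.819 CPM in any library, and neither passed the filter.

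In acid saline at 3 h, 3 of 5 collagen and disulfide enzymes, 2 of 3 genes of mitophagy and cell death and both histone demethylases were higher than at neutral pH. So were 2 of 4 secreted factors, 2 of 4 metabolic and lipid storage genes, 2 of 4 tested other HIF targets and 2 of 5 genes of oxygen sensing and HIF turnover. Of the subunits 0 of 3 were higher, and of the tested transcription and feedback genes 0 of 3. In that last class 2 were lower, WSB1 and CITED2, a competitor of HIF for its coactivators. Of the 33 tested members 15 were higher (45.5%) and 2 lower at pH 6.0. Over all tested genes, 9.53% were higher and 9.26% lower. The median log2 fold change was 0.30 for the tested members and 0.00 for all tested genes. The members that moved at least 2-fold were 3, PPFIA4, STC1 and FUT11, all higher, and 2.28% of all tested genes were higher by that much. A gene counts as changed here when its adjusted p in edgeR's quasi-likelihood test, by Benjamini-Hochberg over all 15630 tested genes, is under 0.05, and a value after ± beside a log2 fold change is its standard error. The count rests in part on a single library: without replicate 3 of pH 6.0 at 3 h it was 9 higher and 1 lower. When libraries were scaled by total counts alone, 13 members were higher and 2 lower, and all genes split into 1194 higher and 1752 lower, against 1489 and 1448.

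At 6 h the difference was broader, and it now took in HIF1A mRNA, which was higher, and EPAS1, HIF1AN and VHL, which were lower. None of these 4 had passed at 3 h. Of the 33 tested members 20 were higher and 4 lower at pH 6.0 (60.6% and 12.1%), against 21.9% higher and 25.1% lower over all tested genes. Those higher by at least 2-fold were 6, NDRG1, PPFIA4, STC1, AK4, MIR210HG and PLOD2, and 1, CITED2, was lower by as much. Over all tested genes 4.09% were higher and 5.31% lower by at least 2-fold. The median log2 fold change was 0.38 for the tested members and 0.00 for all tested genes. The pH comparisons at 3 h and 6 h share no library, but both come from 1 fit with a common estimate of the spread. Of the 15 members higher at 3 h and the 20 higher at 6 h, 13 were the same genes, EGLN1, NDRG1, VEGFA, BNIP3, BNIP3L, P4HA1, PLOD2, KDM3A, KDM4B, ERO1A, PPFIA4, GBE1 and STC1. The share of all tested genes that were higher at both times is not given here, so this overlap has no background beside it. CITED2 was lower at both times.

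**Figure D1:**
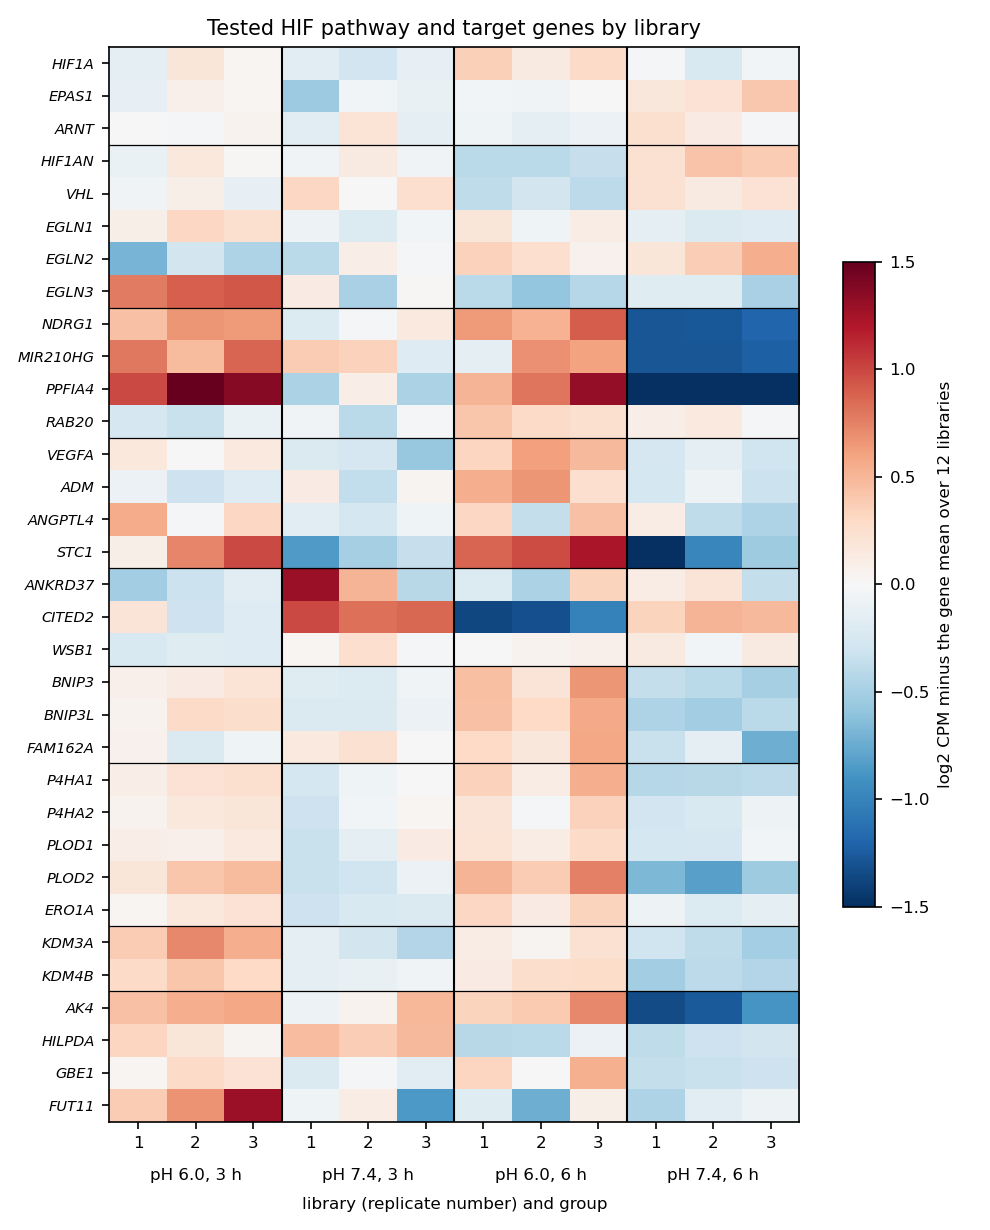
Level of each of the 33 tested members (down the page, in blocks by role) in each of the 12 libraries (across, pH 6.0 left of pH 7.4 at each time). Colour is the log2 CPM minus the gene's mean over the 12 libraries, and values beyond 1.5 in size have the end colour, as for PPFIA4 at pH 7.4 and 6 h. NDRG1, MIR210HG, PPFIA4 and AK4 are lowest in all 3 libraries of pH 7.4 at 6 h, and CITED2 is lowest in those of pH 6.0 at 6 h.

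Among the subunits, HIF1A, the alpha subunit found in most cells, had 123.8, 106.1 and 118.3 CPM at pH 6.0 and 6 h, against 95.6, 82.6 and 93.7 CPM at pH 7.4. All 3 acid libraries were above all 3 neutral ones, and HIF1A rose at 6 h (log2 fold change 0.36 ± 0.09, adjusted p = 0.00251). At 3 h it had 88.4, 109.4 and 99.1 CPM at pH 6.0 and 87.0, 79.3 and 88.9 CPM at pH 7.4. These groups overlapped, and the change did not pass (0.22 ± 0.09, adjusted p = 0.0954), although it did without pH 6.0 replicate 1 (0.0287) and with the filter of 5 CPM (0.0499). A test of whether the pH difference itself differed between 6 h and 3 h, the interaction, did not pass either (0.14 ± 0.13, adjusted p = 0.453).

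EPAS1 encodes the other alpha subunit, HIF-2 alpha. It had 245.2, 242.7 and 253.4 CPM at pH 6.0 and 6 h, against 284.4, 292.4 and 335.0 CPM at pH 7.4. The groups did not overlap, and EPAS1 was lower at pH 6.0 (-0.30 ± 0.10, adjusted p = 0.0210). With time, 6 h against 3 h, EPAS1 rose at pH 7.4 (0.48 ± 0.10, adjusted p = 0.00129). At pH 6.0 its change with time was -0.03 ± 0.10 (adjusted p = 0.889). At 3 h the values were 232.4, 265.7 and 256.7 CPM at pH 6.0 and 173.4, 246.1 and 233.9 CPM at pH 7.4, which overlapped (0.21 ± 0.10, adjusted p = 0.162, and 0.0413 without pH 7.4 replicate 2). The pH difference was lower at 6 h than at 3 h (interaction -0.51 ± 0.15, adjusted p = 0.0122). The pH call at 6 h was lost without pH 7.4 replicate 3 (adjusted p = 0.110), without pH 6.0 replicate 1, 2 or 3 (0.0998, 0.0991 and 0.0618), with a filter of at least 5 CPM (0.0542) and with a correction for gene length (-0.16, adjusted p = 0.111). With that correction the interaction no longer passed (adjusted p = 0.0545).

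ARNT, the partner of both alpha subunits, had 30.7, 29.4 and 30.4 CPM at pH 6.0 and 6 h, against 38.0, 35 and 31.9 CPM at pH 7.4. Its acid libraries were all below its neutral ones, but the change did not pass (-0.21 ± 0.10, adjusted p = 0.0968). The 3 h values were 32.4, 31.8 and 33.4 CPM at pH 6.0 and 28.5, 37.1 and 29.1 CPM at pH 7.4, with overlap (0.04 ± 0.10, adjusted p = 0.816). The interaction did not pass (-0.26 ± 0.15, adjusted p = 0.203), but did without pH 7.4 replicate 2 at 3 h (0.0340).

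Among the genes of oxygen sensing and HIF turnover, HIF1AN, the asparaginyl hydroxylase, had 47.2, 47.2 and 49.1 CPM at pH 6.0 and 6 h, against 73.3, 83.8 and 81.5 CPM at pH 7.4. The groups were well apart, and HIF1AN fell (-0.73 ± 0.09, adjusted p = 6.15e-07). At 3 h the gene had 58.3, 69.5 and 63.4 CPM at pH 6.0 and 60.3, 68.8 and 60.0 CPM at pH 7.4, with a difference near 0 (0.01 ± 0.09, adjusted p = 0.930). The pH difference at 6 h was lower than that at 3 h (interaction -0.75 ± 0.12, adjusted p = 0.000176). With time HIF1AN moved in opposite directions in the different salines: 6 h against 3 h gave -0.41 ± 0.09 at pH 6.0 (adjusted p = 0.00210) and 0.34 ± 0.09 at pH 7.4 (adjusted p = 0.00545).

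VHL, the substrate receptor of the ubiquitin ligase that destroys the alpha subunits, had 49.9, 53.6 and 49.4 CPM at pH 6.0 and 6 h, against 75.7, 71.0 and 75.1 CPM at pH 7.4. It fell without overlap of the groups (-0.54 ± 0.09, adjusted p = 4.13e-05). At 3 h it had 62.6, 69.1 and 59.3 CPM at pH 6.0 and 80.2, 65.1 and 77.3 CPM at pH 7.4. A single neutral library, replicate 2, lay among the acid ones, and the change did not pass (-0.22 ± 0.09, adjusted p = 0.0826), nor did the interaction (-0.31 ± 0.13, adjusted p = 0.0649). Without that library (0.0138) and with the correction for gene length (0.0452) the 3 h change passed, and without pH 7.4 replicate 1 at 3 h the interaction did (0.0448).

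The prolyl hydroxylase genes moved in 3 different ways. EGLN1 had 80.4, 93.9 and 89.8 CPM at pH 6.0 and 3 h, against 72.3, 65.9 and 73.8 CPM at pH 7.4. At 6 h it had 85.9, 72.9 and 82.2 CPM at pH 6.0, against 68.9, 65.3 and 66.6 CPM at pH 7.4. EGLN1 rose without overlap at both times, by 0.32 ± 0.08 at 3 h (adjusted p = 0.0122) and by 0.26 ± 0.09 at 6 h (adjusted p = 0.0149). The 3 h call was lost without pH 6.0 replicate 2 (adjusted p = 0.0707) or replicate 3 (0.0577) and with the correction for length (0.109). With that correction the interaction of EGLN1 turned its sign and passed (0.31, adjusted p = 0.0469, against -0.05 ± 0.12, adjusted p = 0.782), and a fall with time at pH 7.4 passed as well (-0.36, adjusted p = 0.00153, against -0.08 ± 0.09, adjusted p = 0.513).

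EGLN3, a prolyl hydroxylase gene that is itself a HIF target, had 83.9, 91.3 and 93.1 CPM at pH 6.0 and 3 h, against 53.4, 34.9 and 49.4 CPM at pH 7.4. The 6 h values were 36.8, 32.7 and 36.2 CPM at pH 6.0, against 43.2, 43.1 and 34.9 CPM at pH 7.4. The acid libraries at 3 h stood alone, and the other 9 lay between 32.7 and 53.4 CPM. EGLN3 rose at 3 h (0.96 ± 0.12, adjusted p = 1.49e-05), and its difference at 6 h did not pass (-0.20 ± 0.13, adjusted p = 0.201). The interaction was -1.16 ± 0.17 (adjusted p = 9.3e-05). In acid saline it fell with time, 6 h against 3 h, by 1.35 on the log2 scale (SE 0.12, adjusted p = 1.15e-07), while at pH 7.4 the change with time was -0.18 ± 0.12 (adjusted p = 0.276, and 0.0115 without pH 7.4 replicate 2 at 3 h).

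EGLN2 had 5.73, 7.65 and 6.76 CPM at pH 6.0 and 3 h, against 7.04, 9.97 and 9.16 CPM at pH 7.4. At 6 h the gene had 11.8, 11.1 and 9.69 CPM at pH 6.0, against 10.5, 12 and 13.6 CPM at pH 7.4. The pH groups overlapped at both times and neither difference passed (-0.38 ± 0.16, adjusted p = 0.104 at 3 h, or 0.0438 without pH 7.4 replicate 1, and -0.15 ± 0.15, adjusted p = 0.441 at 6 h). EGLN2 rose with time at pH 6.0 (0.70 ± 0.16, adjusted p = 0.00346) and at pH 7.4 (0.47 ± 0.15, adjusted p = 0.0203). The call at pH 7.4 was lost without pH 7.4 replicate 1 at 3 h (0.138) or replicate 3 at 6 h (0.115). Its exons overlap those of the readthrough gene RAB4B-EGLN2 on the same strand over 30.6% of their length, and how the authors' counting shared such reads is not given in the sources used here.

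**Figure D2:**
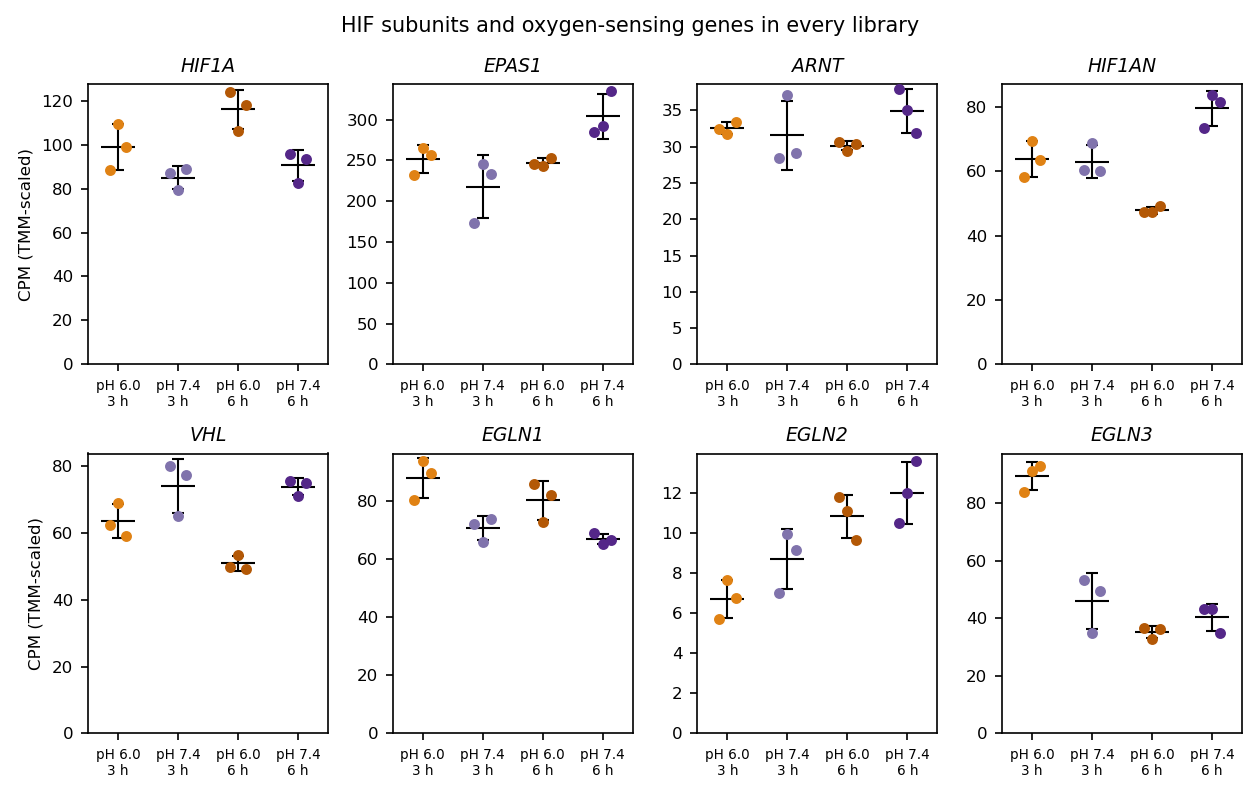
CPM (vertical axis, from 0) of the HIF subunit and oxygen-sensing genes in each library, by group, with pH 6.0 left of pH 7.4 at each time. Points are libraries, the long bar is the group mean and whiskers are 1 SD (n = 3). HIF1AN at pH 6.0 and 6 h lies at 47.2 to 49.1 CPM, below its other 9 libraries, and EGLN3 at pH 6.0 and 3 h lies at 83.9 to 93.1 CPM, above its other 9.

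Of the feedback and transcription genes, CITED2, which competes with the alpha subunits for the coactivators EP300 and CREBBP, had 21.9, 15.5 and 16.8 CPM at pH 6.0 and 3 h, against 38.2, 34.1 and 34.9 CPM at pH 7.4. At 6 h it had 7.47, 7.74 and 9.55 CPM at pH 6.0, against 24.2, 27.4 and 26.9 CPM at pH 7.4. The groups did not overlap at either time. CITED2 fell by 0.98 on the log2 scale at 3 h (SE 0.12, adjusted p = 5.62e-06) and by 1.67 at 6 h (SE 0.13, adjusted p = 1.03e-09), and the fall was larger at 6 h (interaction -0.69 ± 0.18, adjusted p = 0.00630). It also fell with time, by 1.14 at pH 6.0 (SE 0.14, adjusted p = 1.87e-06) and by 0.45 at pH 7.4 (SE 0.12, adjusted p = 0.00542), although the call at pH 7.4 was lost with the length correction (adjusted p = 0.0608).

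WSB1, a ubiquitin ligase adaptor known to act on VHL, fell at 3 h (-0.30 ± 0.08, adjusted p = 0.0175), with 58.4 to 60.3 CPM at pH 6.0 and 67.8 to 81.4 CPM at pH 7.4. This call was lost without pH 6.0 replicate 3 (adjusted p = 0.0562), without pH 7.4 replicate 2 (0.0776) and when only the 2 groups were fitted (0.0577). At 6 h WSB1 gave -0.03 ± 0.08 (adjusted p = 0.778). ANKRD37, an ankyrin repeat gene, was at 0.491 to 0.626 CPM at pH 6.0 and 0.528 to 1.73 CPM at pH 7.4 at 3 h. Its values overlapped and its difference did not pass at 3 h (-1.0 ± 0.43, adjusted p = 0.110, or 0.0460 without pH 7.4 replicate 3) or at 6 h (-0.10 ± 0.46, adjusted p = 0.876). With 8 to 44 counts a library at 3 h, and 35.2% of its exon length shared with UFSP2 on the opposite strand, its level is uncertain.

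PPFIA4, STC1, NDRG1, MIR210HG and AK4 had the largest increases among the members at 6 h. NDRG1, a stress-responsive cytoplasmic protein widely used as a readout of HIF, had 1541.9, 1416.8 and 1844.8 CPM at pH 6.0 and 6 h, against 406.3, 407.1 and 433.8 CPM at pH 7.4. The lowest acid library stood far above the highest neutral one, and the difference was 3.85-fold (log2 1.95 ± 0.11, adjusted p = 1.65e-12). At 3 h NDRG1 had 1340.0, 1559.6 and 1539.5 CPM at pH 6.0, against 857.2, 977.5 and 1092.9 CPM at pH 7.4. The groups were again apart, but by less (0.60 ± 0.10, adjusted p = 0.000290), and the interaction was 1.34 ± 0.14 (adjusted p = 1.3e-06). The acid libraries kept close to their 3 h level, with 0.11 ± 0.10 for 6 h against 3 h (adjusted p = 0.466). At pH 7.4 NDRG1 fell with time by 1.23 on the log2 scale (SE 0.10, adjusted p = 1.73e-08).

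PPFIA4, a liprin scaffold protein, had the largest fold change among the members. It had 7.07, 8.65 and 12.4 CPM at pH 6.0 and 6 h, against 1.34, 1.24 and 1.46 CPM at pH 7.4, a 6.94-fold difference (log2 2.80 ± 0.25, adjusted p = 5.73e-09) that rests on 23 to 24 counts a library at pH 7.4. The 3 h values were 9.82, 14 and 12.8 CPM at pH 6.0, against 3.58, 5.33 and 3.58 CPM at pH 7.4 (1.55 ± 0.20, adjusted p = 1.32e-05). The pH groups were apart at both times, and the difference was larger at 6 h (interaction 1.25 ± 0.33, adjusted p = 0.00674). PPFIA4 fell with time at pH 7.4 (-1.63 ± 0.26, adjusted p = 7.06e-05), and its change at pH 6.0 was -0.38 ± 0.19 (adjusted p = 0.174, and 0.0430 without pH 6.0 replicate 3 at 6 h).

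MIR210HG is the non-coding transcript from which miR-210, the microRNA most closely tied to HIF, is processed. It had 6.05, 10.7 and 10.1 CPM at pH 6.0 and 6 h, against 2.73, 2.74 and 2.86 CPM at pH 7.4, and rose 3.23-fold (log2 1.69 ± 0.21, adjusted p = 1.23e-06). At 3 h the gene had 11.5, 9.26 and 12.2 CPM at pH 6.0, against 8.66, 8.48 and 5.81 CPM at pH 7.4. These libraries did not overlap, yet the change did not pass (0.51 ± 0.18, adjusted p = 0.0553), although it did without pH 6.0 replicate 2 at 3 h (0.0489) or replicate 1 at 6 h (0.0308), with no filter (0.0293) and with the length correction (0.0154). The interaction passed (1.18 ± 0.28, adjusted p = 0.00378), as did a fall with time at pH 7.4 (-1.47 ± 0.21, adjusted p = 2.24e-05). The mature miR-210-3p itself, which these libraries do not count, lies at chr11:568112-568133 on the minus strand (GRCh38.p14, RefSeq) and is shown with its seed, bases 2 to 8, in capitals.
hsa-miR-210-3p: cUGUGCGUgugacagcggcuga
RAB20, a small GTPase of membrane traffic, did not differ past the threshold at 3 h (-0.07 ± 0.10, adjusted p = 0.685) or at 6 h (0.23 ± 0.10, adjusted p = 0.0631). The 6 h difference passed when any of 5 libraries was left out, pH 6.0 replicate 1 or any pH 7.4 library at 3 h or pH 6.0 replicate 3 at 6 h (adjusted p from 0.0272 to 0.0492), with the filter of 5 CPM (0.0223) and when only the 2 groups were fitted (0.0194). It rose with time at pH 6.0 (0.54 ± 0.10, adjusted p = 0.000668).

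**Figure D3:**
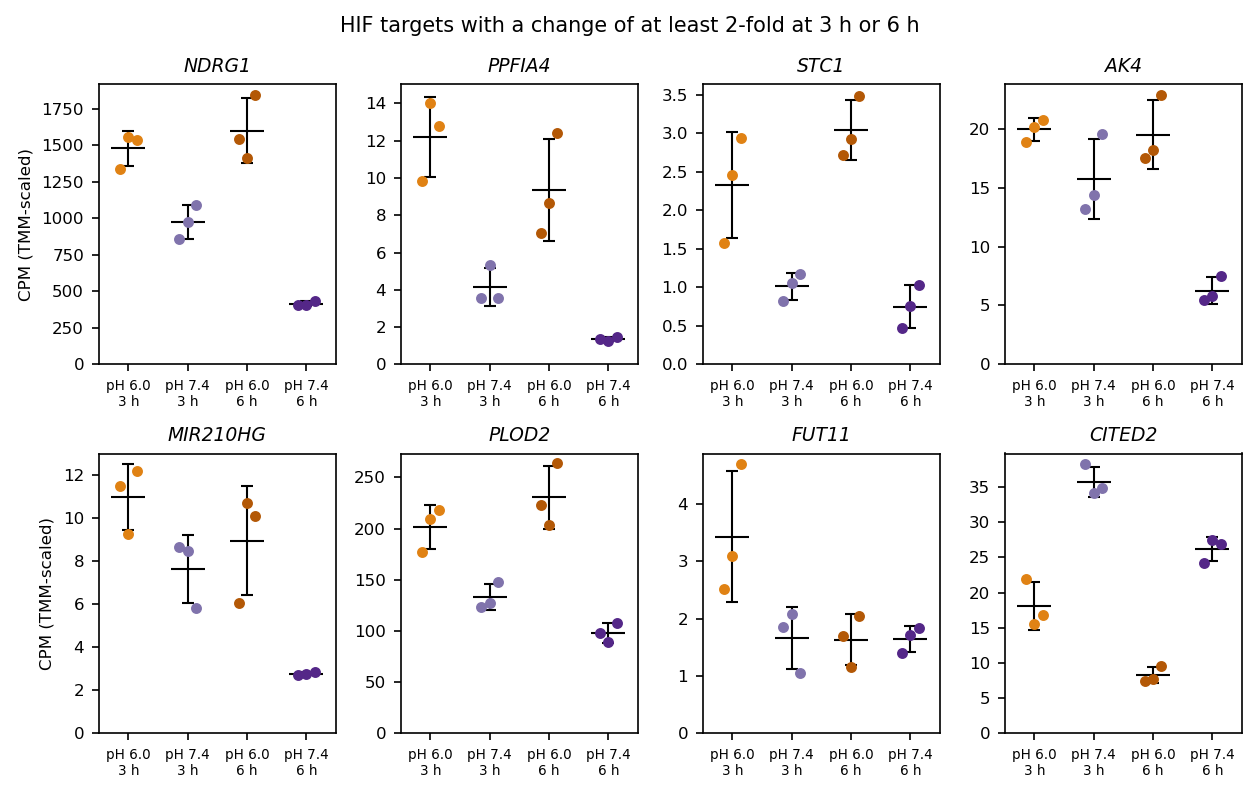
CPM (vertical axis, from 0) in each library of 7 HIF targets outside glycolysis and the inhibitor CITED2, each changed by at least 2-fold at 3 h or 6 h, by group, with pH 6.0 left of pH 7.4 at each time. Points are libraries, the long bar is the group mean and whiskers are 1 SD (n = 3). NDRG1 at pH 7.4 and 6 h lies at 406.3 to 433.8 CPM, below all other groups, and FUT11 at pH 6.0 and 3 h lies at 2.51 to 4.70 CPM, above its other 9 libraries.

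Among the secreted factors, STC1, a glycoprotein hormone of calcium and phosphate handling, had 1.58, 2.46 and 2.94 CPM at pH 6.0 and 3 h, against 0.826, 1.05 and 1.17 CPM at pH 7.4. The 6 h values were 2.72, 2.93 and 3.48 CPM at pH 6.0, against 0.465, 0.752 and 1.03 CPM at pH 7.4. STC1 rose at both times without overlap, by 1.20 ± 0.31 at 3 h (adjusted p = 0.00939) and by 2.01 ± 0.32 at 6 h (adjusted p = 2.36e-05), with the interaction short of the threshold (0.81 ± 0.45, adjusted p = 0.188). It is a low transcript, with 8 to 17 counts a library at pH 7.4 and 6 h, and the 3 h call was lost without pH 6.0 replicate 3 (adjusted p = 0.0713) or pH 7.4 replicate 1 (0.0544).

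VEGFA, the main growth factor of blood vessels, had 817.8, 996.2 and 915.4 CPM at pH 6.0 and 6 h, against 546.4, 589.9 and 531.8 CPM at pH 7.4, and rose by 0.71 ± 0.10 (adjusted p = 2.52e-06). At 3 h it had 726.3, 655.1 and 722.8 CPM at pH 6.0, against 560.5, 546.0 and 439.1 CPM at pH 7.4 (0.44 ± 0.10, adjusted p = 0.00239). The pH groups were apart at both times, but the 3 h difference became 0.14 ± 0.16 (adjusted p = 0.591) with the correction for gene length. Its interaction was 0.27 ± 0.13 (adjusted p = 0.145), but 0.88 (adjusted p = 0.0210) with that correction, and 0.40 (adjusted p = 0.0266) without pH 7.4 replicate 3 at 3 h. ADM, the vasodilator peptide adrenomedullin, had 21.7, 23.7 and 17.8 CPM at pH 6.0 and 6 h, against 12.4, 14.2 and 11.9 CPM at pH 7.4. It rose at 6 h (0.72 ± 0.14, adjusted p = 0.000181), not at 3 h (-0.13 ± 0.14, adjusted p = 0.543), and the interaction was 0.85 ± 0.20 (adjusted p = 0.00270). ANGPTL4, an inhibitor of lipoprotein lipase, did not pass at 3 h (0.47 ± 0.25, adjusted p = 0.195) or 6 h (0.37 ± 0.26, adjusted p = 0.254), at 1.97 to 3.71 CPM at pH 6.0 and 1.83 to 2.73 CPM at pH 7.4.

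The mitophagy genes BNIP3 and BNIP3L encode receptors on the outer mitochondrial membrane that mark mitochondria for removal, and FAM162A is a mitochondrial protein tied to cell death in hypoxia. All 3 rose at 6 h, BNIP3 by 0.87 ± 0.09 (adjusted p = 1.33e-07), BNIP3L by 0.90 ± 0.09 (adjusted p = 1.68e-08) and FAM162A by 0.74 ± 0.13 (adjusted p = 0.000122), and all 3 had a pH difference that was larger at 6 h than at 3 h. BNIP3 had 338.0, 281.8 and 390.4 CPM at pH 6.0 and 6 h, against 192.3, 186.6 and 174.7 CPM at pH 7.4. FAM162A had 75.7, 69.7 and 92.3 CPM at pH 6.0 and 6 h, against 49.1, 55.8 and 37.2 CPM at pH 7.4. No acid library of either gene was as low as a neutral one. At 3 h BNIP3L rose (0.38 ± 0.08, adjusted p = 0.00355), FAM162A did not pass (-0.19 ± 0.13, adjusted p = 0.312), and BNIP3 passed narrowly (0.28 ± 0.09, adjusted p = 0.0391). The call of BNIP3 at 3 h was lost without pH 6.0 replicate 2 or 3, without pH 7.4 replicate 1 or 2 and without pH 7.4 replicate 1 of the 6 h group, with adjusted p from 0.0508 to 0.160, and with total counts (0.0564). Its interaction was 0.59 ± 0.13 (adjusted p = 0.00233), and 0.26 (adjusted p = 0.180) with the correction for length.

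All 5 collagen and disulfide enzymes among the members rose at 6 h, and 3 of them, P4HA1, PLOD2 and ERO1A, rose at 3 h as well. PLOD2, a lysyl hydroxylase that sets collagen cross-links, had 223.2, 203.8 and 264.5 CPM at pH 6.0 and 6 h, against 98.1, 88.7 and 107.9 CPM at pH 7.4. Every acid library was far above every neutral one, and PLOD2 rose 2.35-fold (log2 1.23 ± 0.10, adjusted p = 4.65e-09). The 3 h values were 177.5, 209.3 and 217.7 CPM at pH 6.0, against 123.7, 127.5 and 147.4 CPM at pH 7.4 (0.60 ± 0.10, adjusted p = 0.000368). The interaction was 0.63 ± 0.15 (adjusted p = 0.00300). P4HA1, a catalytic subunit of collagen prolyl hydroxylase, rose by 0.75 ± 0.09 at 6 h (adjusted p = 9.49e-07) and by 0.30 ± 0.09 at 3 h (adjusted p = 0.0295). The 3 h call of P4HA1 was lost without pH 6.0 replicate 2 (0.0903) or 3 (0.122) or pH 7.4 replicate 1 (0.158). ERO1A, the oxidase that drives disulfide formation, rose by 0.39 ± 0.08 at 3 h (adjusted p = 0.00166) and by 0.40 ± 0.08 at 6 h (adjusted p = 0.000265), with an interaction of 0.01 ± 0.11 (adjusted p = 0.955). The sister enzymes P4HA2 (0.37 ± 0.10, adjusted p = 0.00483) and PLOD1 (0.38 ± 0.10, adjusted p = 0.00218) rose at 6 h.

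The histone demethylases KDM3A and KDM4B need oxygen for their reaction and are HIF targets. KDM3A had 122.0, 154.5 and 137.3 CPM at pH 6.0 and 3 h, against 85.3, 77.9 and 69.3 CPM at pH 7.4. At 6 h the gene had 101.8, 96.7 and 110.5 CPM at pH 6.0, against 76.3, 72.2 and 66.1 CPM at pH 7.4. KDM3A rose without overlap at both times (0.83 ± 0.10, adjusted p = 2.19e-06 at 3 h, and 0.53 ± 0.10, adjusted p = 0.000111 at 6 h). KDM4B rose by 0.44 ± 0.08 at 3 h (adjusted p = 0.000336) and by 0.67 ± 0.08 at 6 h (adjusted p = 2.85e-07). Neither interaction passed (-0.30 ± 0.13, adjusted p = 0.0944 for KDM3A, and 0.23 ± 0.11, adjusted p = 0.114 for KDM4B). Each passed without a single library, that of KDM3A without pH 6.0 replicate 1 at 3 h (0.0490) and that of KDM4B without pH 6.0 replicate 1 at 6 h (0.0422). With the length correction the interaction of KDM4B was 0.46 and passed (adjusted p = 0.00103).

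Among the metabolic enzymes, AK4, a mitochondrial adenylate kinase, had 17.5, 18.2 and 22.9 CPM at pH 6.0 and 6 h, against 5.47, 5.80 and 7.54 CPM at pH 7.4. Its acid libraries were all above its neutral ones, and it was 3.11-fold higher at pH 6.0 (log2 1.64 ± 0.16, adjusted p = 2.36e-08). With time AK4 fell at pH 7.4 (-1.32 ± 0.16, adjusted p = 2.26e-06). At pH 6.0 its change with time was -0.03 ± 0.14 (adjusted p = 0.897). At 3 h the gene had 18.9, 20.2 and 20.8 CPM at pH 6.0, against 13.2, 14.4 and 19.6 CPM at pH 7.4, with overlap (0.36 ± 0.14, adjusted p = 0.0875). The 3 h difference passed without pH 7.4 replicate 3 (0.0198) and with the replicate number as a block (0.37, adjusted p = 0.0241). The interaction was 1.28 ± 0.22 (adjusted p = 0.000189). GBE1, the glycogen branching enzyme, rose at 6 h (0.63 ± 0.11, adjusted p = 4.19e-05) and just passed at 3 h (0.31 ± 0.11, adjusted p = 0.0443). That 3 h call was lost when any of 8 libraries was left out, which were pH 6.0 replicate 2 or 3 and pH 7.4 replicate 1 or 3 at 3 h, and pH 6.0 replicate 1 and each pH 7.4 library at 6 h (adjusted p from 0.0520 to 0.182), and with total counts (0.0748). HILPDA, a lipid droplet protein that restrains fat breakdown, did not pass at 3 h (-0.25 ± 0.14, adjusted p = 0.228) or 6 h (0.02 ± 0.16, adjusted p = 0.924).

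FUT11, a fucosyltransferase, had 2.51, 3.09 and 4.70 CPM at pH 6.0 and 3 h, against 1.85, 2.09 and 1.06 CPM at pH 7.4. At 6 h it had 1.70, 1.16 and 2.05 CPM at pH 6.0, against 1.40, 1.72 and 1.83 CPM at pH 7.4. The groups were apart at 3 h and overlapped at 6 h. FUT11 rose at 3 h (1.02 ± 0.29, adjusted p = 0.0176) and not at 6 h (-0.03 ± 0.32, adjusted p = 0.947), but the interaction did not pass (-1.05 ± 0.43, adjusted p = 0.0737), except without pH 6.0 replicate 1 (0.0410) or pH 7.4 replicate 2 (0.0485) at 3 h and with the length correction (0.0491). With 18 to 75 counts a library at 3 h, the call was lost without pH 6.0 replicate 3 (0.152) or pH 7.4 replicate 3 (0.0844).

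**Figure D4:**
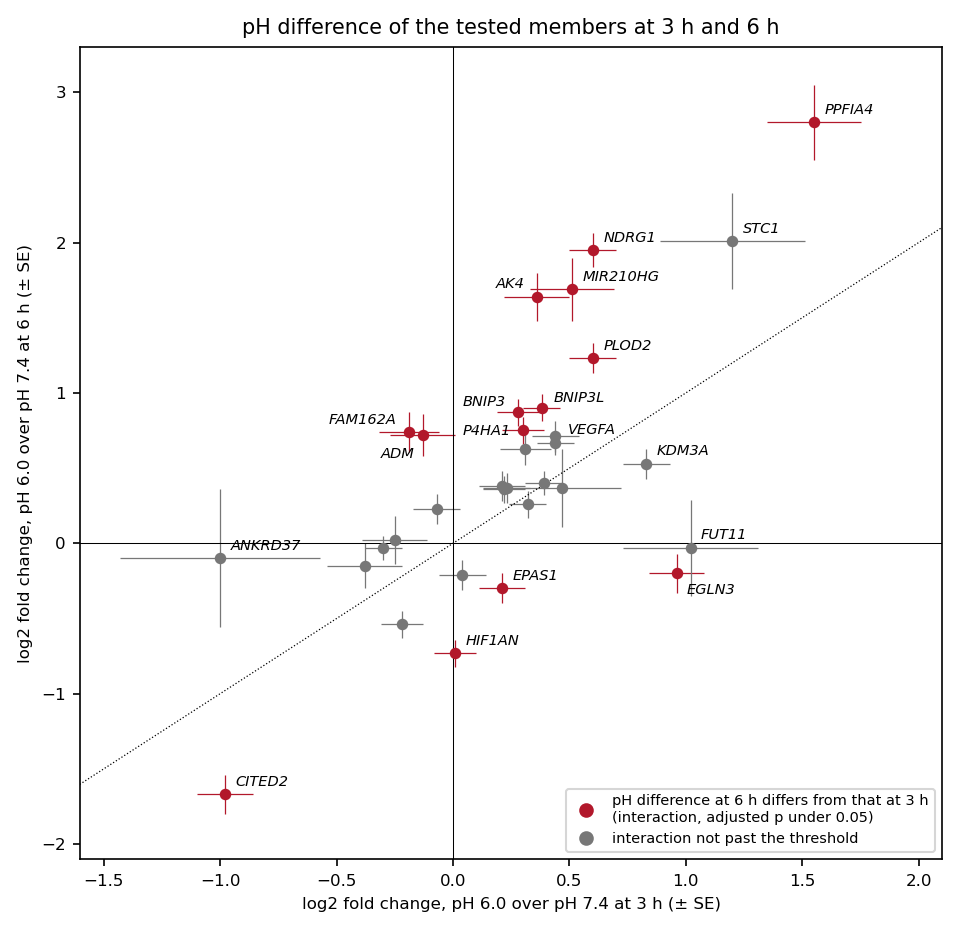
Log2 fold change of pH 6.0 over pH 7.4 at 3 h (horizontal axis) and at 6 h (vertical axis) for the 33 tested members, each with its SE as error bars. Red points passed the interaction and grey points did not, and the dotted line marks equal differences at both times. PPFIA4, NDRG1, AK4, MIR210HG and PLOD2 lie above the line, and CITED2, HIF1AN, EPAS1 and EGLN3 lie below it.

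The pH difference at 6 h differed from that at 3 h for 14 of the 33 members. It was higher at 6 h for 10 (30.3%) and lower for 4 (12.1%), against 13.1% and 16.3% of all tested genes. The median interaction was 0.26 for the members and -0.03 for all tested genes. The 10 were NDRG1, ADM, BNIP3, BNIP3L, P4HA1, PLOD2, AK4, MIR210HG, PPFIA4 and FAM162A. The 4 were EPAS1, HIF1AN, EGLN3 and CITED2, and their share was below that of all tested genes in that direction.

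The changes with time, 6 h against 3 h, were tested in each saline. A call in 1 saline alone does not show that the salines differ, which is what the interaction tests. In neutral saline 3 members were higher and 12 lower at 6 h (median -0.16), against 17.2% higher and 14.4% lower over all tested genes (median -0.02). In acid saline 7 were higher and 7 lower (median 0.09), against 8.64% higher and 10.9% lower over all tested genes (median -0.02). These comparisons share no library with each other, but each shares a group with both pH comparisons. The 12 that fell in neutral saline were NDRG1, BNIP3, BNIP3L, P4HA1, PLOD2, KDM4B, AK4, MIR210HG, HILPDA, PPFIA4, FAM162A and CITED2. Of these, 8 were not called in acid saline, BNIP3 and FAM162A were higher there, and HILPDA and CITED2 were lower there too. Of the 8, all but KDM4B passed the interaction, but the 8 were picked by the same changes that make up the interaction. The share of all tested genes with such a pair of calls is not given here, so these counts have no background beside them. BNIP3L, one of the 8, was close to the threshold in acid saline (0.23 ± 0.08, adjusted p = 0.0560), where its libraries at 6 h were all above those at 3 h, and it passed as higher under 11 alternatives (adjusted p from 0.0148 to 0.0493). BNIP3 gave 0.31 ± 0.09 with time at pH 6.0 (adjusted p = 0.0215) and -0.28 ± 0.09 at pH 7.4 (adjusted p = 0.0284). Its rise was lost without pH 6.0 replicate 2 at 3 h (0.0576) or replicate 3 at 6 h (0.128), and its fall without pH 7.4 replicate 3 at 3 h (0.0865) or replicate 2 or 3 at 6 h (0.0582 and 0.117). With the length correction neither passed, the rise being 0.20 (adjusted p = 0.135) and the fall -0.06 (adjusted p = 0.718), and with total counts the rise was 0.22 (adjusted p = 0.0832). FAM162A gave 0.42 ± 0.13 at pH 6.0 (adjusted p = 0.0256) and -0.51 ± 0.13 at pH 7.4 (adjusted p = 0.00587), its rise being lost without pH 6.0 replicate 2 (0.109) or 3 (0.0805) at 3 h or replicate 3 at 6 h (0.115) and with total counts (0.0701). The falls of BNIP3L (-0.29 ± 0.09, adjusted p = 0.0128) and P4HA1 (-0.30 ± 0.09, adjusted p = 0.0164) in neutral saline were lost without pH 7.4 replicate 2 at 6 h (0.0539) for BNIP3L, and without pH 7.4 replicate 3 at 3 h (0.0623) or replicate 1 at 6 h (0.0528) and with the length correction (0.0530) for P4HA1. That of HILPDA in acid saline (-0.48 ± 0.15, adjusted p = 0.0296) was lost without pH 6.0 replicate 1 or 2 at either time (0.0676 to 0.137), with DESeq2 (0.0536), with no filter (0.0782) and when only the 2 groups were fitted (0.0573). EPAS1 and HIF1AN were among the 3 that rose in neutral saline, and EGLN2 was the third.

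In acid saline VEGFA (0.38 ± 0.09, adjusted p = 0.00730), ADM (0.69 ± 0.14, adjusted p = 0.00101), WSB1 (0.25 ± 0.08, adjusted p = 0.0425) and RAB20 rose with time without a call in neutral saline. VHL (-0.32 ± 0.09, adjusted p = 0.0153), EGLN3, KDM3A (-0.42 ± 0.09, adjusted p = 0.00299) and FUT11 (-1.08 ± 0.30, adjusted p = 0.0139) fell with time there without a call in neutral saline. Among these genes only ADM and EGLN3 passed the interaction. For WSB1 it was 0.26 ± 0.12 (adjusted p = 0.102, but 0.0254 with the length correction and 0.0448 without pH 7.4 replicate 3 at 3 h). For RAB20 it was 0.30 ± 0.15 (adjusted p = 0.122, but 0.0180 without pH 7.4 replicate 2 at 3 h). With the length correction RAB20 also rose with time in neutral saline (0.47, adjusted p = 0.000440) and KDM3A also fell there (-0.48, adjusted p = 0.00160). Of the time calls, 7 of the 14 in acid saline and 10 of the 15 in neutral saline held under every alternative that tested the gene. VHL in acid saline was lost without replicate 2 at 3 h or replicate 1 or 3 at 6 h (0.0783 to 0.0882), and WSB1 without any 3 h library or without replicate 2 or 3 at 6 h (0.0532 to 0.104), with no filter (0.0506) and with total counts (0.16, adjusted p = 0.211). FUT11 was lost without replicate 3 at 3 h (0.123) or replicate 2 at 6 h (0.0908), and VEGFA with the length correction (0.0524). When libraries were scaled by total counts alone, members split into 4 higher and 7 lower in acid saline and 3 higher and 13 lower in neutral saline. All genes then split into 773 higher and 2499 lower in acid saline, against 1351 and 1699 with TMM factors, and into 2093 and 3179 in neutral saline, against 2695 and 2247.

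**Figure D5:**
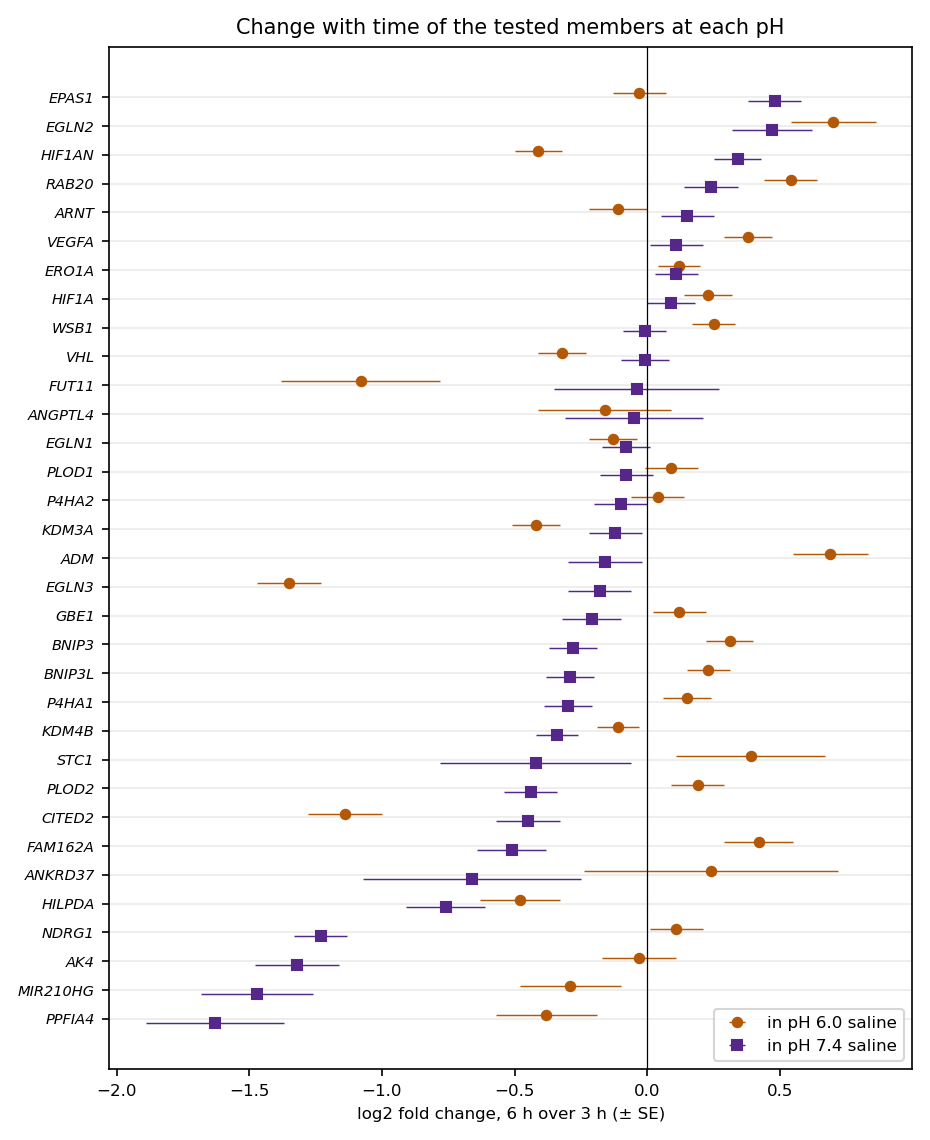
Log2 fold change of 6 h over 3 h (horizontal axis, with SE) for each of the 33 tested members (down the page, ordered by the change in pH 7.4 saline), with circles for pH 6.0 and squares for pH 7.4. The squares of NDRG1, AK4, MIR210HG and PPFIA4 lie between -1.63 and -1.23 while their circles lie between -0.38 and 0.11.

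Other genes of the pathway moved in part like these members. Among 22 glycolytic HIF targets 10 rose (45.5%) and 0 fell at 3 h, against 9.53% and 9.26% of all tested genes. At 6 h 20 rose (90.9%) and 0 fell, against 21.9% and 25.1%, with a median log2 fold change of 0.61. The lactate exporter SLC16A3 rose by 1.48 ± 0.11 (adjusted p = 2.54e-10) and PGAM1, a mutase of glycolysis, by 1.38 ± 0.08 (adjusted p = 7.41e-12) at 6 h. The phosphofructokinase PFKP rose by 1.06 ± 0.09 (adjusted p = 2.4e-09) and lactate dehydrogenase LDHA by 1.04 ± 0.09 (adjusted p = 2.61e-09). Of these 22 genes 14 fell (63.6%) and 2 rose (9.09%) with time at pH 7.4, against 14.4% and 17.2% of all tested genes. With time at pH 6.0, 2 rose (9.09%) and 0 fell, against 8.64% and 10.9%. The share that rose there was near that of all genes.

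Of 24 further HIF targets outside glycolysis 20 were tested, and 12 of the 20 rose and 2 fell at 6 h (median 0.36), against 21.9% and 25.1% of all tested genes. At 3 h 5 of the 20 rose and 2 fell, against 9.53% and 9.26%, so the share that fell was near that of all genes. DDIT4, an inhibitor of mTOR signalling, rose by 1.12 ± 0.10 (adjusted p = 1.02e-08), the oxygenase JMJD6 by 0.98 ± 0.10 (adjusted p = 7.85e-08) and the MYC antagonist MXI1 by 0.94 ± 0.10 (adjusted p = 1.39e-07). STC2, a relative of STC1, went the other way (-0.91 ± 0.08, adjusted p = 3.85e-09), so that the pair STC1 and STC2 had opposite signs at 6 h.

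HIF targets known from the intestinal barrier did not share one direction. Of 11 listed 10 were tested, and 3 rose and 4 fell at 6 h (median 0.08), against 21.9% and 25.1% of all tested genes, while 1 rose and 2 fell at 3 h, against 9.53% and 9.26%. With 10 genes these shares are not far from those of all genes. The tight junction protein CLDN1 (-1.58 ± 0.08, adjusted p = 2.84e-13), the drug exporter ABCB1 (-1.14 ± 0.09, adjusted p = 7.55e-10) and the adenosine receptor ADORA2B (-0.86 ± 0.09, adjusted p = 1.63e-07) fell at 6 h. NT5E, the ectoenzyme that makes adenosine, rose (0.32 ± 0.08, adjusted p = 0.00126).

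Among 10 tested genes of 12 in the remaining HIF machinery, 5 rose and 2 fell at 6 h, against 21.9% and 25.1% of all tested genes, and 0 rose and 2 fell at 3 h, against 9.53% and 9.26%. The chaperones that stabilise the alpha subunits, HSP90AA1 (0.63 ± 0.09, adjusted p = 5.04e-06) and HSP90AB1 (0.59 ± 0.08, adjusted p = 2.15e-06), rose at 6 h. The coactivators EP300 (-0.80 ± 0.12, adjusted p = 3.26e-05) and CREBBP (-0.51 ± 0.11, adjusted p = 0.00124) fell at 6 h, as did CITED2, which competes with the alpha subunits for them.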

How the data were processed

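RNA was measured in 12 T84 libraries in 4 groups of 3. Each deposited table holds read counts per gene and RPKM values, both made by the authors; per the submitters' processing notes the tools included CASAVA and STAR and the build was hg19. Not given in the sources used here are the counting program, its gene annotation and whether it used strand. Deposited counts went into all tests; deposited RPKM values (counts scaled by gene length and library total, by the authors) served only to compare levels between genes. All columns were used. A single length per gene reproduced 100.0% of the RPKM values within a relative tolerance of 1e-06. Symbols from gene name tables were found for 45342 of 48162 identifiers; RefSeq sequence and GENCODE 29 exon tables are on GRCh38 and were used for names, promoters and exon overlap.

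edgeR 4.0.16 in R 4.3.3 fitted all 12 libraries in 4 groups (robust quasi-likelihood F test, TMM factors, filterByExpr, 15630 genes tested, 8 residual degrees of freedom, biological coefficient of variation 9.29%), with Benjamini-Hochberg adjustment and a threshold of 0.05. The standard error is the size of the log2 fold change divided by the square root of F. The procedure was also run on simulated counts in which few genes changed, in a single group. Many more genes changed in these data, so that run does not measure the error of the calls here. In each of the 12 within-group pairs of libraries the counts differed beyond sampling noise (chi-square test), so none was treated as a copy.

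Alternatives were DESeq2 1.42.0, scaling by total counts or by median-of-ratios factors, a filter of at least 5 CPM in 3 libraries or no filter, a fit to the compared groups alone, a term for the replicate number, a correction for gene length by natural splines with 5 degrees of freedom, and each library left out in turn. The members and the gene lists were chosen with earlier results of these data known, so no pattern here is independent evidence. Values in every library were to be given for the subunits and oxygen-sensing genes, for members changed at least 2-fold by pH at either time or in the interaction, and for those lower at 6 h. The values of other members given by library, and which of them, were chosen after their values were seen. Of each other list, up to 4 genes with the smallest p for pH at 6 h are named.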

Additional observations from a re-analysis of the deposited data

Results flagged for a closer look

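The pH difference at 6 h differed from that at 3 h by edgeR's interaction test for 14 members. The interaction was 1.34 for NDRG1, 1.28 for AK4, 1.25 for PPFIA4, 1.18 for MIR210HG, 0.93 for FAM162A, 0.85 for ADM, 0.63 for PLOD2, 0.59 for BNIP3, 0.52 for BNIP3L and 0.46 for P4HA1, on the log2 scale. It was -1.16 for EGLN3, -0.75 for HIF1AN, -0.69 for CITED2 and -0.51 for EPAS1. The interaction calls of EPAS1 and BNIP3 were lost with the correction for gene length, with adjusted p of 0.0545 and 0.180, and the other 12 held under every alternative tried. With 3 libraries a group, no single library was tested for standing apart.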

How the results depend on the processing

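Among the members called in each of the 5 comparisons (17, 24, 14, 15 and 14 in the order pH at 3 h, pH at 6 h, time at pH 6.0, time at pH 7.4 and interaction), no log2 fold change turned its sign under an alternative that tested the gene; among those not called it turned for 3, 4, 4, 8 and 6 members. In 1 case the turned value passed: the interaction of EGLN1 was -0.05 (adjusted p = 0.782), and 0.31 (adjusted p = 0.0469) with the correction for gene length; the cause was not tested. With a library left out, the count of members that differed with pH was 10 to 18 at 3 h (17 with all libraries) and 23 to 25 at 6 h (24). It was 10 to 16 (14) for time at pH 6.0, 13 to 17 (15) for time at pH 7.4 and 14 to 17 (14) for the interaction. Over all genes the count was 1648 to 3617 (2937) for pH at 3 h, 6203 to 7566 (7342) at 6 h, 1915 to 3408 (3050) for time at pH 6.0, 3309 to 5211 (4942) for time at pH 7.4 and 3457 to 5136 (4589) for the interaction. At 3 h the count over all genes was 1661 without pH 7.4 replicate 1, 1649 without pH 6.0 replicate 2 and 1648 without pH 6.0 replicate 3, and that of members was 10 without pH 6.0 replicate 3; for time at pH 6.0 it was 1915 over all genes without that same library. The cause was not tested. Under the alternatives that keep all libraries the count of members was 15 to 18 for pH at 3 h, 23 to 25 at 6 h, 11 to 15 and 15 to 16 for time at pH 6.0 and pH 7.4, and 14 to 17 for the interaction. Calls that held under every alternative that tested the gene were 9 of 17 at 3 h, 23 of 24 at 6 h and 12 of 14 in the interaction. STC1, one of the 23, fell below the filter of 5 CPM and was not tested there. Whether replicate numbers pair the libraries is not settled here. Same-numbered libraries had correlations of -0.127 to 0.226 in their deviations from the group means, 2 of 18 over 0.1. Different-numbered ones had -0.19 to 0.156, 4 of 36 over 0.1. Over all pairs of groups, 14 of 36 comparisons were highest for the own number. Between pH 6.0 and pH 7.4 at the same time, same-numbered libraries 1, 2 and 3 had 0.226, 0.0902 and 0.0452 at 3 h. At 6 h they had 0.068, 0.144 and -0.0281. With the replicate number as a block, 18 members differed at 3 h, 24 at 6 h, 15 and 15 with time at pH 6.0 and pH 7.4, and 14 in the interaction. Over all genes the block gave 3231 changed with pH at 3 h and 7457 at 6 h, against 2937 and 7342 without it. A fit of only the groups compared does not apply to the interaction. Low counts limit the precision of ANKRD37, STC1, FUT11 and PPFIA4, and left BHLHE40 and TMEM45A untested.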
